A study of Rattus norvegicus with 12 samples.

Results

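Preadipocytes from the perirenal fat of old rats were compared with those of young rats, 3 arrays against 3, which is 6 of the 12 arrays of the study. The arrays were chosen by their labels, which give the fat depot, the age and the number of the rat. All animals were male Brown Norway rats that were barrier reared and specific pathogen free. The young rats were 3 months old and the old rats 30 months old. The other 6 arrays hold epididymal preadipocytes of the same 6 rats and serve here as a second depot. Per the labels, cells were freed from minced fat with collagenase, plated, trypsinised, replated at a fixed density and grown to confluence before total RNA was extracted, so the values describe undifferentiated cultures and not fat tissue. The labels also state that macrophage markers did not differ with age or among depots in the cultures.

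Preadipocytes are fibroblast-like precursors that live in the stroma of fat and can become fat cells. Differentiation starts with the transcription factors C/EBPβ and C/EBPδ, which switch on PPARγ and C/EBPα, and these in turn switch on genes of the fat cell such as Fabp4, a fatty acid carrier. In rodents, precursors from old animals are known to differentiate less readily and to release more inflammatory cytokines, and the stress factor CHOP (gene Ddit3) and the RNA-binding protein CUGBP1 (gene Celf1) are known brakes on this programme. Perirenal fat lies around the kidney and adrenal gland, whose cells could be carried over when the fat is dissected.

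Each value is a MAS5 signal, a linear intensity for 1 probe set on 1 array. The mean signal, with the lowest and highest 2% left out, was 500.1 on each of the 6 perirenal arrays, and the median signal was 194.3 to 201.6. RNA completeness, read as the 3' over the 5' signal of a control gene, was 0.902 to 1.11 for beta-actin and 1.06 to 1.17 for Gapdh. None of the 12 array measures compared between ages reached an exact two-sided permutation p under 0.2, where 3 against 3 arrays cannot go below 0.1. Arrays of 1 age correlated at 0.965 on average and arrays of different age at 0.963, taken across the tested probe sets, which do not count as replicates. On the 6 epididymal arrays, which are used below for the second depot, the 3'/5' ratio was 5.25 to 55.0 for beta-actin and 1.85 to 6.94 for Gapdh, and the median signal was 152.9 to 175.9. The spike-in dap read 493 to 766 there, against 0.4 to 2.3 on the perirenal arrays. Depot and these measures cannot be told apart, which touches every value of a difference between depots. The third old array correlated least with the other perirenal arrays, at a mean of 0.954 against 0.963 to 0.969 for the rest. Markers of mesenchymal precursors were present: of 23 on the array only Pi16 averaged below the filter level of 56.3 on the 6 perirenal arrays. Their summed signal was 86608, 89948 and 93321 in the young and 88976, 90050 and 89151 in the old cultures. Counts of markers below this level use the mean of the perirenal arrays, whereas the filter for testing used the mean of all 12 arrays. Of 11 mature fat cell markers on the array only 3 lay below that level, Lep, Lipe and Cebpa.

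One probe set out of 11106 differed between old and young perirenal preadipocytes at an adjusted p under 0.05, which is 0.009% of those tested with limma and Benjamini-Hochberg adjustment. It belongs to Stmn2, which codes for stathmin 2 (SCG10), a protein that binds tubulin and loosens microtubules in growing nerve cells. Its signal was 157, 78.2 and 114 on the young arrays and 1005, 679 and 630.3 on the old arrays. The lowest old array was thus far above the highest young array, and the ages did not overlap. The log2 difference (old minus young) was 2.76 ± 0.27 (SE, n = 3 rats per age), or 6.75-fold, with a 95% interval of 2.14 to 3.37 and an adjusted p of 0.0358. The p-values and standard errors rest on the spread between 3 separate animals per age, combined with spread that limma borrows from other probe sets. Of 8.99 degrees of freedom, 4 came from the arrays of the probe set itself and 4.99 from the others.

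A second probe set of Stmn2 gave 706, 318.5 and 476 on the young arrays and 2893, 1909 and 2073 on the old arrays. Here too every old array lay above every young one, and the first young and first old arrays were the highest of their age in both probe sets. The log2 difference was 2.25 ± 0.28, or 4.75-fold, and its adjusted p of 0.109 did not pass. The call on the first probe set depended on single arrays: leaving out the third young array gave an adjusted p of 0.455, and leaving out the first, the second or the third old array gave 0.11, 0.213 and 0.217. Without the first or the second young array it was 0.0232 and 0.0323. It was also lost without the filter on low signal (0.142), without the intensity trend (0.202) and in a fit of all 12 arrays (0.149), and adjusted p ranged from 0.00389 to 0.455 over all alternatives in which this probe set was tested. The difference itself stayed between 2.50 and 3.00 whichever array was left out.

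**Figure D1:**
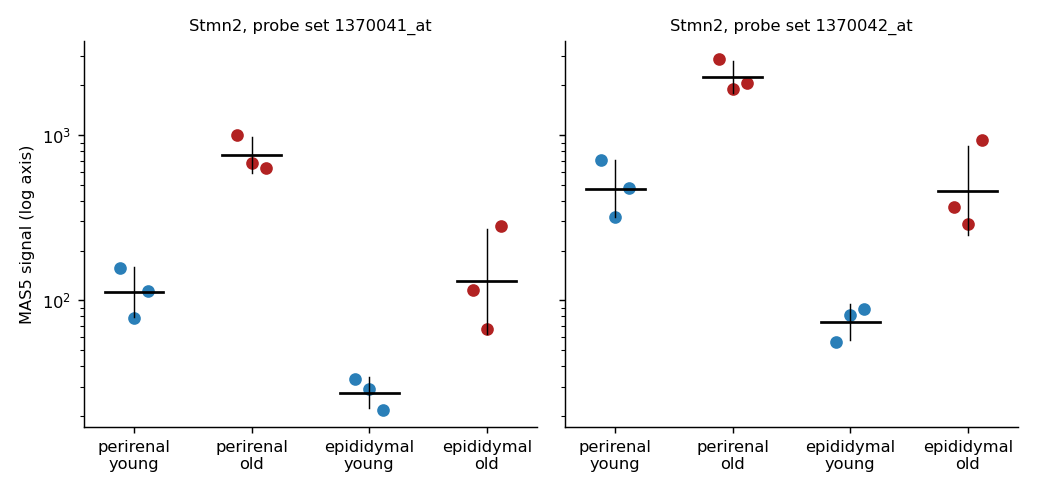
MAS5 signal (log axis) of the 2 Stmn2 probe sets in the 3 arrays of each depot and age, with the geometric mean as a bar and 1 SD of the log2 values as a vertical line. In perirenal cells the old arrays (630.3 to 1005 and 1909 to 2893) lie above the young arrays (78.2 to 157 and 318.5 to 706) in both probe sets.

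In the epididymal cultures too, the old arrays read above the young ones. The first probe set read 33.3, 28.9 and 21.7 in the young and 116, 66.8 and 283 in the old epididymal arrays, and the second 56, 81.1 and 89.1 in the young and 366, 288 and 933 in the old. The young values of the first probe set and 1 of the second lie below the filter level of 56.3, so the size of the epididymal difference, and of any contrast with it, is not well measured. On the log2 scale the fitted differences were 2.24 ± 0.55 (adjusted p = 0.507) and 2.64 ± 0.40 (adjusted p = 0.249), which did not pass. A test of the difference between depots, perirenal minus epididymal, gave 0.52 ± 0.62 (adjusted p = 0.964) and -0.39 ± 0.55 (adjusted p = 0.970). The labels give both depots the same 6 rats, so the epididymal arrays do not add animals. Among the other 10 tested genes of the list of Schwann cell and neural markers, Uchl1, a ubiquitin hydrolase abundant in neurons, read 382, 386 and 504 in the young and 278.5, 181 and 225 in the old perirenal cultures, with a difference of -0.90 ± 0.20 (adjusted p = 0.496). Of 23 such markers on the array 9 lay below the filter level, among them Sox10, Mbp, Nefl, Nefm, Nefh, Gap43, Th and Dbh. The list's summed signal was 8462 to 9584 in the young and 10618 to 12388 in the old perirenal arrays, of which the second Stmn2 probe set is a part, and none of its markers was at 0 throughout. In RNA from a whole culture, more cells of a kind and more RNA per cell cannot be told apart.

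Beyond Stmn2 no probe set passed. At an unadjusted limma p under 0.05 there were 780 probe sets (7.02%), where 555 would be 5% of those tested. Of these, 401 were higher (3.61%) and 379 lower (3.41%) in old cells. At an unadjusted p under 0.001 there were 21, of which 16 were higher and 5 lower, against 11 for 0.1% of those tested. Old and young arrays did not overlap for 1511 probe sets (13.6%), with 678 higher in old cells (6.1%) and 833 lower (7.5%). For 3 against 3 arrays in random order, a share of 0.1 would not overlap. The median size of the difference was 0.15 on the log2 scale, and 98 probe sets differed more than 2-fold. For 9852 probe sets (88.7%) the 95% interval of the difference lay within 2-fold in either direction. At the median standard error of 0.18, a single difference had to reach 1.73 on the log2 scale (3.33-fold) to pass at the adjusted threshold.

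**Figure D2:**
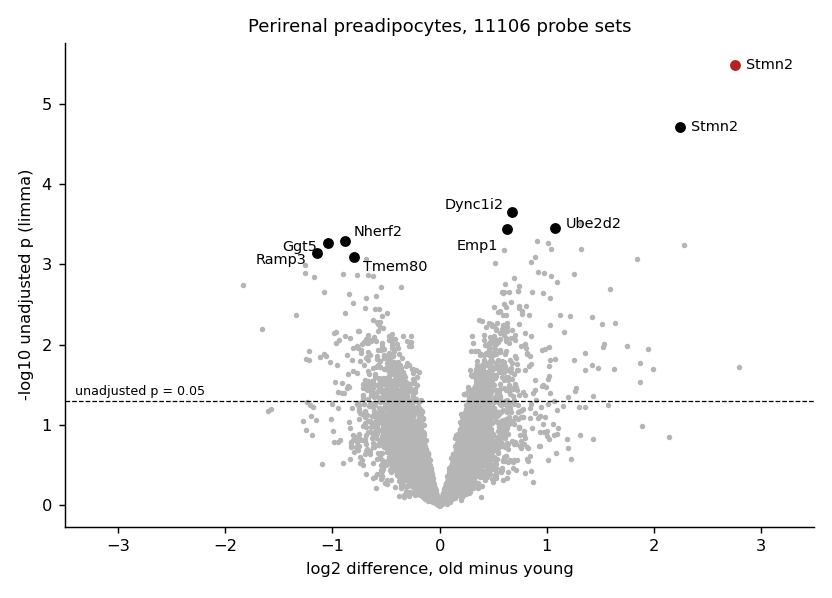
Log2 difference between old and young perirenal preadipocytes (x axis) against -log10 of the unadjusted limma p (y axis) for 11106 probe sets, with Stmn2 and the other genes of smallest p named. Only 1 Stmn2 probe set (red) passed the adjusted threshold, and its log2 difference of 2.76 lies apart from the bulk of the probe sets.

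By the rule for named genes, the 3 next smallest p in the higher direction belonged to Dync1i2, Ube2d2 and Emp1, all at an adjusted p of 0.496. Dync1i2, an intermediate chain of cytoplasmic dynein, which carries cargo along microtubules, read 1289, 1366 and 1422 in young and 2279, 2249.9 and 2010.1 in old cells, a log2 difference of 0.68 ± 0.11. Ube2d2, a ubiquitin-conjugating enzyme, read 246, 151 and 176 in young and 418, 384.5 and 384 in old cells, a difference of 1.08 ± 0.19. In both, all old arrays stood above all young arrays and varied little among themselves. The other probe sets of Ube2d2 gave differences of 0.32 ± 0.16 and -0.32 ± 0.28. Emp1, a small membrane protein of epithelia, read 2251, 2105 and 2027 in young and 3564, 3359 and 2981 in old cells (0.63 ± 0.11), but its second probe set gave -0.44 ± 0.25.

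In the lower direction the smallest p belonged to Nherf2, Ggt5, Ramp3 and Tmem80, also at an adjusted p of 0.496. Ramp3, a receptor partner that makes the calcitonin receptor-like receptor respond to adrenomedullin, read 1879, 1363 and 2128 in young and 1009, 591 and 851 in old cells, a log2 difference of -1.14 ± 0.23. Ggt5, an enzyme that cleaves glutathione conjugates such as leukotriene C4, read 879, 895 and 1039.8 in young and 537, 528 and 332.5 in old cells (-1.04 ± 0.20). For both genes every old array lay below every young array. Nherf2, a scaffold that anchors membrane transporters, read 256, 230.3 and 226 in young and 145, 122 and 119.8 in old cells (-0.88 ± 0.17), while its second probe set gave -0.19 ± 0.46. Tmem80, a transmembrane protein, differed by -0.80 ± 0.16. In epididymal cells the same probe sets of these 4 genes differed by -0.36 to 0.16.

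Where an array carries several probe sets for a gene, they gave a further look at the same RNA. Of 1139 such genes, 2 were higher and 3 lower by every one of their tested probe sets at an unadjusted limma p under 0.05, together 0.439% of these genes. For 3 genes, probe sets at that p pointed in opposite directions. Higher were Stmn2 and Crispld2, a secreted cysteine-rich protein (0.74 ± 0.17 and 0.74 ± 0.19). Lower were Epb41l3, a protein of the membrane skeleton, Pdha1, a subunit of pyruvate dehydrogenase (-0.44 ± 0.16 and -0.33 ± 0.12), and Oaz2, an inhibitor of polyamine synthesis (-0.58 ± 0.19 and -0.36 ± 0.16). The lower genes and Crispld2 were picked out after their values were seen, and their adjusted p was 0.496 or higher. Epb41l3 had the largest difference of the 3 lower genes: its first probe set read 1181, 860.2 and 1179 in young and 611, 291 and 494 in old cells (-1.26 ± 0.26), and its second 1065, 684 and 1012 against 578, 318 and 296 (-1.25 ± 0.27). Both probe sets separated the ages without overlap, and on the epididymal arrays, with their higher 3'/5' ratios, they differed by 0.07 and -0.04. There the Crispld2 probe sets went the other way, at -0.69 ± 0.51 and -0.68 ± 0.45. Those of Pdha1 differed there by 0.18 and -0.07 and those of Oaz2 by -0.27 and 0.05.

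The regulators of fat cell formation showed no age difference that passed. Of 25 tested adipogenic regulators 0 passed after adjustment with limma and 1 was at an unadjusted p under 0.05, or 4%, beside 7.07% (566) of all 8002 genes taken with 1 probe set each. Their median log2 difference was 0.03, beside -0.01 over all genes. Pparg, the master regulator, read 168, 235 and 84.9 in young and 172, 149.7 and 294 in old cells (0.39 ± 0.38), so the ages overlapped. Cebpb read 1964, 2141 and 2604 in young and 2440.4, 2451 and 2249 in old cells (0.10 ± 0.13), with a 95% interval of -0.20 to 0.40. Cebpd differed by 0.28 ± 0.30, with a value of 2393 on the third old array and -0.12 without it, and a second probe set gave -0.13 ± 0.13. The member at an unadjusted p under 0.05 was Nr1h3, the oxysterol receptor LXRα (46.2, 73.5 and 96 against 94.6, 116 and 149, difference 0.78 ± 0.32), and next came Klf4, an early factor of adipogenesis (0.51 ± 0.23). Cebpa lay below the filter level, at 13.1, 89.1 and 61.9 in young and 4.8, 44.5 and 22.7 in old cells.

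Inhibitors of adipogenesis had 1 of 22 tested members (4.55%) at an unadjusted p under 0.05, beside 7.07% of all genes. The member was Id2, a partner that silences helix-loop-helix factors, at 386, 393 and 392 in young and 431, 522.5 and 1115 in old cells (0.69 ± 0.30). The third old array was the highest and the young arrays were almost equal, but a second Id2 probe set gave -0.12 ± 0.19. Klf2 differed by -0.34 ± 0.16, and by -0.46 to -0.15 in its other probe sets. Ddit3, which codes for CHOP, read 243, 189 and 169.7 in young and 262, 161 and 166 in old cells, a difference of -0.05 ± 0.23 with a 95% interval of -0.58 to 0.48. Celf1 differed by 0.06 ± 0.14 (-0.25 to 0.38) in the probe set of highest signal, and by 0.39 ± 0.15 (adjusted p = 0.703) in its other probe set, whose old arrays (690.1, 683 and 518) all lay above the young ones (477, 509 and 449). Dlk1, which holds back differentiation, was not tested, since its mean over all 12 arrays lay below the filter level. It read 67.8, 119.8 and 108 in young and 63.3, 60.2 and 40.1 in old cells.

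Among genes of the lipid-filled fat cell, Fabp4 and Cfd were uneven between cultures. Slc2a4 (231 to 309 in its probe set of highest signal), Cidea (131 to 182) and Pnpla2 (148 to 294) varied less over the perirenal arrays. Of 26 tested lipid storage genes 1 (3.85%) was at an unadjusted p under 0.05, beside 7.07% of all genes. Of the 26 differences 8 were above 0, beside 3907 of 8002 over all genes, and the list's median was -0.07. The gene at that p was Pck1, which makes the glycerol backbone of stored fat (112, 133 and 159 against 75.8, 109.6 and 92.5, difference -0.54 ± 0.24). Fasn, the fatty acid synthase, differed by -0.22 ± 0.10, and by 0.16 ± 0.16 in its other probe set. Fabp4 read 27.7, 669.7 and 86.5 in young and 27.7, 246 and 355 in old cells, a difference of 0.20 ± 1.19 whose 95% interval of -2.50 to 2.90 leaves its direction unknown. Cfd, the adipokine adipsin, read 85.3, 1816 and 131 in young and 96.2, 424 and 275 in old cells. The second young and the second and the third old culture were thus the high ones for both genes. The summed signal of the 11 fat cell markers on the array, which include both, was 959, 3755 and 1156 in young and 974, 1615 and 1556 in old cells.

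**Figure D3:**
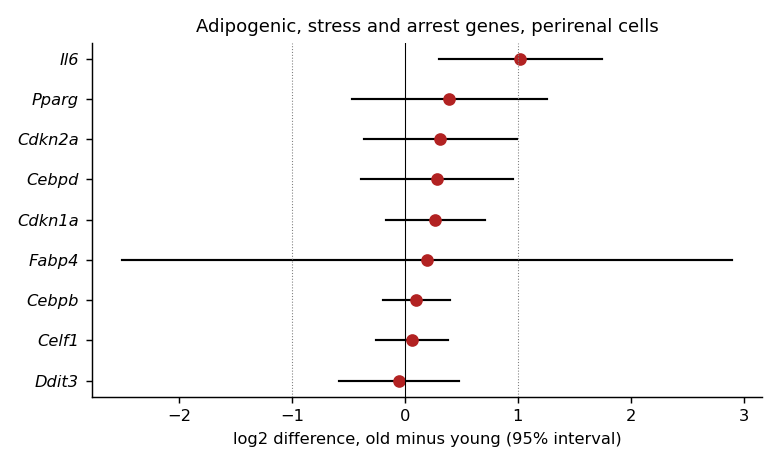
Log2 difference (old minus young) of 9 adipogenic, stress and arrest genes in perirenal preadipocytes, with 95% intervals from limma; dotted lines mark 2-fold. Il6 (1.02) has an interval above 0 before adjustment, and the interval of Fabp4 runs from -2.50 to 2.90.

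The list of secreted inflammatory genes had 5 of 32 tested members at an unadjusted p under 0.05, all higher in old cells. That is 15.6%, beside 3.84% of all genes in that direction. The list also holds genes whose products are not secreted, such as Nfkbia, Nfkb1, Rela and the receptor Il1r1. None of the 32 passed after adjustment with limma, and the list's median difference was 0.14. Il6, the cytokine interleukin 6, read 1217, 1365 and 738 in young and 1730.2, 1662 and 3572 in old cells, with a log2 difference of 1.02 ± 0.32 (adjusted p = 0.657). Its old arrays all lay above its young arrays, with the third old culture the highest. Vegfa, the vascular growth factor, read 560, 495 and 412 in young and 843, 707 and 699 in old cells (0.62 ± 0.16), although its other probe set differed by 0.02 ± 0.31. Nfkbia, the inhibitor that NF-κB induces, read 209, 146 and 221 in young and 344, 265 and 297 in old cells (0.67 ± 0.20). Of the remaining pair, named after their values were seen, Plau, the urokinase, differed by 0.42 ± 0.14 and Cxcl12, a chemokine of stromal cells, by 0.39 ± 0.15. In epididymal cells these 5 genes differed by 0.76 (Il6), -0.29 (Vegfa), -0.29 (Nfkbia), -1.09 (Plau) and -0.19 (Cxcl12). The count was 10 without the first old array and 8 without the second young array, and 4 to 6 without each of the others. Both Tnf probe sets had a mean over all 12 arrays below the filter level and were not tested.

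Macrophage and leukocyte markers had the highest share of any list at an unadjusted limma p under 0.05. It was 5 of 16 tested members (31.2%), all higher in old cells, beside 3.84% of all genes in that direction. Of the 16 differences 13 were above 0, beside 3907 of 8002 over all genes. The ages did not overlap for 2 of the 16 (12.5%), beside 14% of all genes. None of the 16 passed after adjustment with limma, and their median log2 difference was 0.37. Lyz2, lysozyme of phagocytes, read 151, 455 and 220.2 in young and 400.5, 1319 and 693 in old cells (1.53 ± 0.47). Cd68, a lysosomal protein of macrophages, read 35.5, 169.9 and 21.5 in young and 105, 256 and 303 in old cells (1.99 ± 0.71), so the second young array lay within the old range for both genes. The young geometric mean of Cd68 (50.6) lies below the filter level, and the size of its difference is not well measured. Fcgr2b, an inhibitory antibody receptor from a family of near-identical genes, read 57.5, 79.7 and 50.6 in young and 117, 166 and 325 in old cells (1.59 ± 0.37), with no overlap. Fcer1g, the signalling chain of such receptors, differed by 0.96 ± 0.38, and Laptm5, a lysosomal protein of blood cells, by 0.71 ± 0.21.

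The summed signal of the 31 macrophage and leukocyte markers on the array was 4107, 5387 and 4159 in young and 5231, 6986 and 6324 in old perirenal cultures. The first old and second young cultures were close to each other, and the second and the third old culture were the highest. Of the 31 markers 15 lay below the filter level in perirenal cells, among them Ptprc (CD45), Itgam and the C1q chains C1qa, C1qb and C1qc, and none was at 0 on every array. Csf1r, Cd14, Aif1, Cd48, Cd4 and Cx3cr1, named after their values were seen, each had an unadjusted p above 0.05. In epididymal cells 0 of the 16 tested markers were at an unadjusted limma p under 0.05, beside 5.25% of all genes there, and the median difference was 0.16. Tested directly, the age difference differed between depots at an unadjusted limma p under 0.05 for 2 of the 16, beside 427 of 8002 genes. None of the 16 passed that test after adjustment. The perirenal count was 8 without the second young or the first old array, and 3 without the first young, the third young or the second old array. The part of these markers in the differences of the secreted inflammatory genes was not tested.

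**Figure D4:**
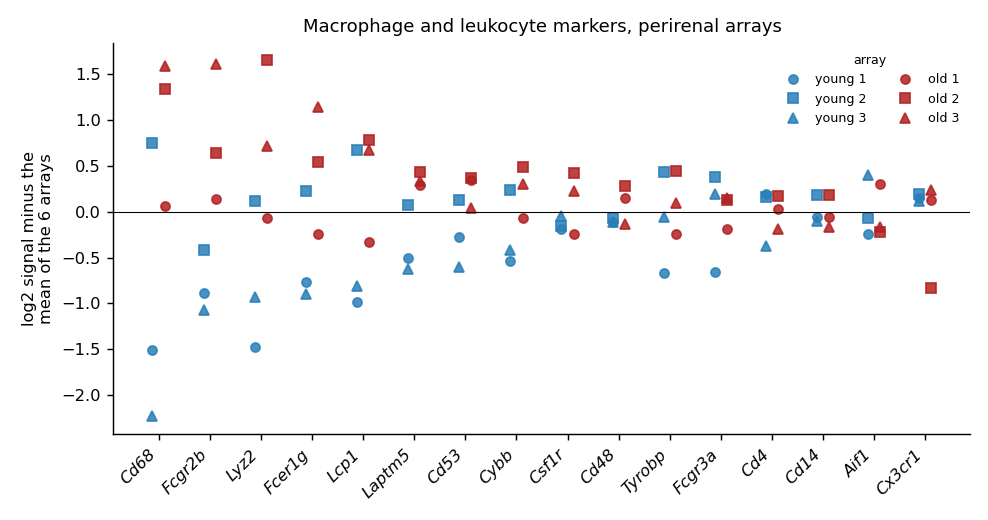
Log2 signal of 16 macrophage and leukocyte markers on each perirenal array, minus the mean of the 6 arrays for that gene (y axis), ordered by the age difference; blue is young and red is old, and the symbol gives the number of the rat. For Cd68 and Lyz2 the second young array lies among the old arrays. The ages are apart for Fcgr2b and Laptm5 (12.5% of the list, beside 14% of all genes).

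Complement and coagulation genes had 3 of 23 tested members at an unadjusted p under 0.05, all higher in old cells (13%, beside 3.84% of all genes). These were Cd59b, which protects cells from complement (0.53 ± 0.15), Tfpi2, a protease inhibitor of the matrix (0.65 ± 0.20), and, named after its value was seen, Thbd, thrombomodulin (0.60 ± 0.21). The count was 6 and 5 without the second young and first old arrays, and 2 without the first young, the third young or the second old array. Interferon and antigen presentation genes had 2 of 46, both higher (4.35%, beside the same 3.84%). RT1-T24-4, a class I histocompatibility gene, read 208, 112 and 154 in young and 353, 313 and 499.5 in old cells (1.32 ± 0.26), without overlap. Its probe set is of a kind that can bind several members of this gene family, so the member is uncertain. Gbp2, an interferon-induced GTPase, differed by 0.57 ± 0.25 with overlapping ages.

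Senescence and division genes were counted next. Of 24 tested genes of cell cycle arrest and p53 targets, 0 were at an unadjusted limma p under 0.05, beside 7.07% of all genes. The list's median difference was 0.08. Cdkn2a, which codes for the senescence proteins p16 and ARF, read 172, 99 and 248 in young and 187, 210 and 206 in old cells (0.31 ± 0.30, 95% interval -0.37 to 0.99). Cdkn1a, the p53 target p21, differed by 0.27 ± 0.19 (-0.17 to 0.71) and Cdkn1b, p27, by 0.23 ± 0.17, while their other probe sets gave -0.04 ± 0.48 and -0.27 ± 0.26. For these arrest genes the young and old arrays overlapped. Proliferation and replication genes had 6 of 55 tested members at an unadjusted p under 0.05, all higher in old cells (10.9%, beside 3.84% of all genes in that direction), with a median of 0.13. Prim2, a DNA primase subunit, read 141, 58.6 and 102 in young and 184, 202 and 286 in old cells (1.22 ± 0.32), and Rpa2, which binds single-stranded DNA, differed by 0.54 ± 0.15. The other 4, named after their values were seen, were Mcm7 of the replicative helicase (0.56), Ccnd2, a D-type cyclin (0.51), Aurka, a mitotic kinase (0.51), and H2az1, a histone variant (0.23). This count was 9 without the second young array, 8 without the first old array, 3 without the second old array and 4 without the third young or the third old array.

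No matrix gene passed after adjustment with limma, and those at a low unadjusted p lay in both directions. Of 74 tested collagens and structural matrix genes 4 were higher and 5 lower at an unadjusted p under 0.05 (12.2%). Over all genes that share was 7.07% (3.84% higher and 3.24% lower), and the list's median was 0.00. Sparc, a collagen-binding glycoprotein, read 22613, 20973 and 20429 in young and 17188, 17276 and 15356 in old cells (-0.36 ± 0.08), while its other probe set gave -0.09 ± 0.11. Smoc1, a relative of Sparc in basement membranes, read 117, 235 and 91.1 in young and 79.4, 29 and 34.3 in old cells (-1.66 ± 0.47). The old geometric mean of Smoc1 lies below the filter level. In all, the lower genes were Sparc, Smoc1, Aspn (asporin, -1.06), Sdc4 (syndecan 4, -0.34) and Col1a2 (a chain of type I collagen, -0.23), each without overlap of the ages. The higher ones were Tnc (tenascin C, 0.59), Efemp1 (fibulin 3, 0.80), Lum (lumican, 0.38) and Col5a3 (a chain of type V collagen, 0.74). Of these, Tnc and Efemp1 had no overlap either. Over the whole list the ages did not overlap for 2 genes in the higher and 7 in the lower direction (12.2%), beside 14% of all genes. Aspn, Sdc4, Col1a2, Tnc, Efemp1 and Col5a3 were named after their values were seen. The count was 14 without the second young array and 7 to 9 without each of the others.

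Among enzymes that remodel matrix, 2 of 38 were at an unadjusted p under 0.05, both higher (5.26%, beside 3.84% of all genes in that direction). The count was 8 without the second young array and 0 without the second old array, and 1 to 3 without each of the others. Serpine2, protease nexin 1, read 248, 232 and 250.1 in young and 441, 439 and 263 in old cells (0.61 ± 0.21), with the third old array close to the young ones. Mmp12, the macrophage elastase, read 168, 506 and 117 in young and 296, 1342 and 497 in old cells (1.44 ± 0.61). The second array of each age was the highest for Mmp12, as it was for Lyz2. Of 21 tested precursor markers 2 (9.52%) were at an unadjusted p under 0.05, both higher. They were Itgb1, the β1 integrin (0.40 ± 0.11, but -0.05 ± 0.12 in its other probe set), and Lum.

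Over all genes 7.07% were past an unadjusted limma p of 0.05, and the lists of growth and patterning held 4.76% to 10.3%. The share of members past that p thus lay on either side of the share over all genes. In the insulin-like growth factor axis it was 1 of 21, Igf2, at 70.4, 93.2 and 81.8 in young and 23.1, 31.1 and 59 in old cells (-1.22 ± 0.41), where the old level lies below the filter. In TGF-β, BMP and activin signalling they were Inhbb, a subunit of activin B (0.51 ± 0.18), Bmp7 (-0.61 ± 0.26) and Id2 among 48 genes. Wnt signalling had 2 of 37, both lower: Lgr4, a receptor for R-spondins (-0.47 ± 0.15), and Tle3, a co-repressor (-0.38 ± 0.13). The Wnt count was 5 without the second young, 4 without the third old and 1 without the first young array. Among 56 growth factors, receptors and early response genes the smallest p belonged to Vegfa and to Pdgfc, a platelet-derived growth factor (-0.61 ± 0.18), and 3 members were past it, which became 7 without the first old and 8 without the second old array. Of 29 tested patterning genes 3 were past it, and 1 without the first young array. Meox2, a homeobox factor, read 155, 155 and 115 in young and 255, 246 and 283 in old cells (0.89 ± 0.18), and Hoxa10, a homeobox factor of the trunk, differed by 0.54 ± 0.18. The third, named after its value was seen, was Foxc1, a forkhead factor (-0.44 ± 0.19).

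With all 6 arrays, housekeeping pathways did not exceed the share of all genes at a low p. At an unadjusted limma p under 0.05 their lists held 1.45% to 6.06%, beside 7.07% of all genes. Of 69 tested subunits of oxidative phosphorylation 1 was at an unadjusted p under 0.05 (1.45%), with a median of -0.05: Atp5pb, a subunit of ATP synthase (-0.44 ± 0.16). Old and young arrays did not overlap for 9 of these subunits in the lower and 1 in the higher direction, 14.5% in all beside 14% of all genes (6.27% higher, 7.69% lower). The count at an unadjusted p under 0.05 was 5 without the second young array. Of 40 tested ribosomal protein genes 2 were lower, Rpl6 (-0.26 ± 0.08) and Rps9 (-0.21 ± 0.08). Of the 40 differences 8 were above 0, beside 3907 of 8002 over all genes, and the list's median was -0.10. Without the third old array the count at an unadjusted p under 0.05 was 6 and the median -0.15. Proteasome subunits had 2 of 33, Psma4 (-0.31 ± 0.11) and Psmb5 (-0.26 ± 0.09), both lower. Chaperones had 1 of 60, Syvn1, a ligase that clears misfolded proteins of the endoplasmic reticulum (316, 308 and 370.2 against 513, 524 and 476, difference 0.61 ± 0.14).

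Further metabolic lists gave similar counts, with 3.57% to 9.09% at an unadjusted limma p under 0.05 beside 7.07% of all genes. Oxidative stress and detoxification genes had 3 of 61 at an unadjusted p under 0.05, among them Taldo1, transaldolase (-0.39 ± 0.12), and Cyp1b1, a cytochrome P450 (0.44 ± 0.17), a count that was 6 without the first old and 1 without the third young array. Lysosomal and autophagy genes had 4 of 62, led by Cd68 and Lipa, the lysosomal acid lipase (0.46 ± 0.17). Their count was 8 without the second young array and 0 without the third young or the third old array. Cholesterol genes had 1 of 28, Nsdhl, a sterol dehydrogenase (0.66 ± 0.16). Glycolysis and hypoxia genes had 4 of 44, with Vegfa and Pdha1 of smallest p, and 2, 2 and 1 without the first young, the second old and the third old array. In all 32 lists together, 0 genes passed after limma's adjustment when each gene was taken by its probe set of highest signal.

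**Figure D5:**
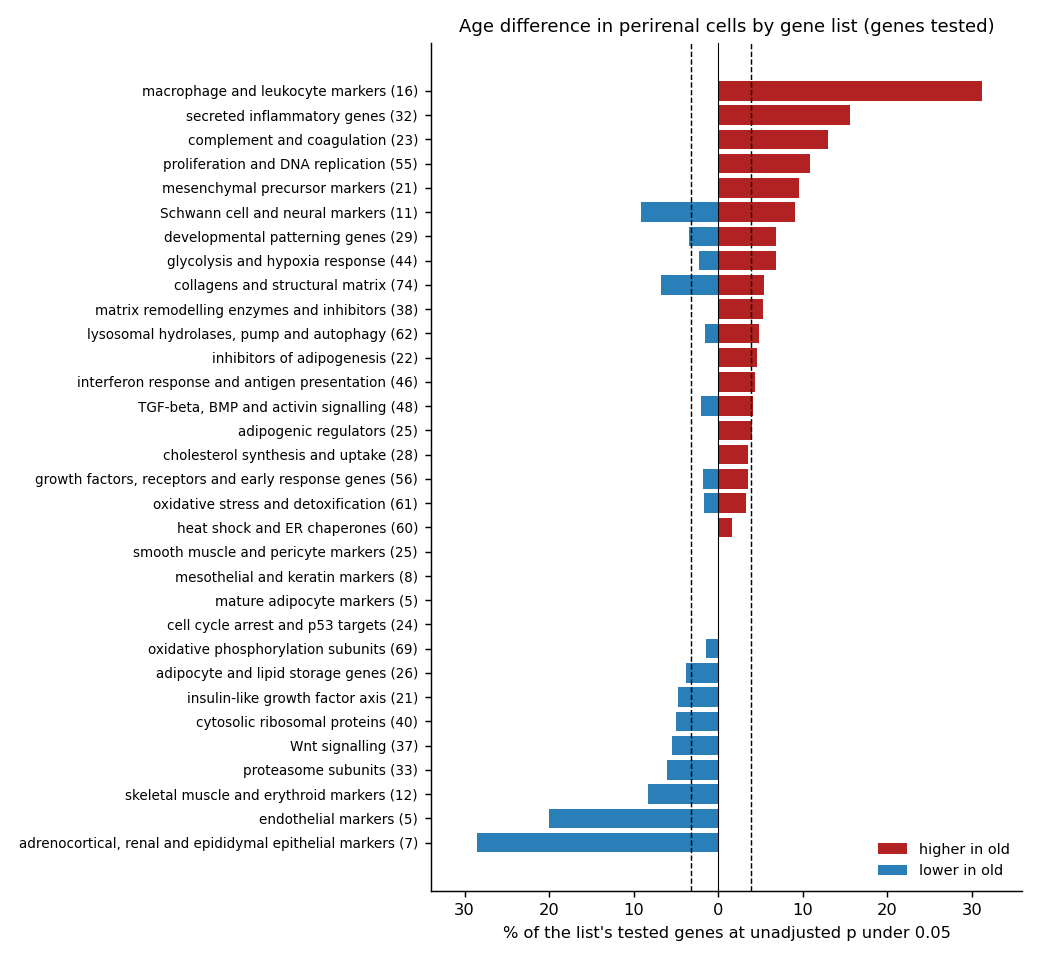
Share of each list's tested genes (number in parentheses) at an unadjusted limma p under 0.05, higher in old perirenal cells to the right and lower to the left; dashed lines mark the shares over all 8002 genes, 3.84% higher and 3.24% lower. Macrophage and leukocyte markers reach 31.2%, all higher, on 16 genes, and the adrenal, renal and epididymal list 28.6%, all lower, on 7 genes.

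Many markers of cells that lie near perirenal fat were below the filter level. Of 22 adrenocortical, renal and epididymal markers on the array 11 lay below the filter level in perirenal cells, including Cyp17a1, Nr5a1, Umod, Slc12a1 and Aqp2. At an unadjusted p under 0.05 were 2 of 7 tested ones (28.6%), both lower. Over all genes the share at that p was 7.07%, with 3.24% lower. Lrp2, the renal endocytic receptor megalin, read 134, 142 and 150.3 in young and 88.3, 98.4 and 82.4 in old cells (-0.67 ± 0.20), and Slc34a1, a renal phosphate transporter, differed by -0.71 ± 0.29. The list's summed signal was 2892 to 3311 in young and 2648 to 3000 in old cultures, and none of its markers was at 0 throughout. Of 20 endothelial markers 13 lay below the filter level, including Pecam1, Kdr and Vwf. Among 5 tested the 1 at an unadjusted p under 0.05 (20%) was Egfl7, a secreted endothelial factor (-0.32 ± 0.14, and -0.12 ± 0.15 in its other probe set). Skeletal muscle and erythroid markers had 1 of 12 (8.33%), Tnni2, a fast troponin (-0.70 ± 0.24). With limma 0 of 25 smooth muscle and pericyte markers, 0 of 8 mesothelial and keratin markers and 0 of 5 mature fat cell markers were at an unadjusted p under 0.05. Slpi, a protease inhibitor on the mesothelial list, read 352, 2024 and 293 in young and 704, 1021 and 3414 in old cells (1.19 ± 0.76), highest in the second young and the third old culture.

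Whether the age difference was the same in perirenal and epididymal cells was tested as an interaction over all 12 arrays. With limma 0 of 11106 probe sets passed, the smallest adjusted p was 0.839, and 612 (5.51%) were at an unadjusted p under 0.05. Age in epididymal cells gave 0 probe sets past the adjusted threshold and 597 (5.38%) at an unadjusted p under 0.05. The smallest interaction p belonged to Il17re and RT1-T24-4 in the positive and Smoc1 and Igf2r in the negative direction. The old perirenal level of Smoc1 lies below the filter level, so the size of its difference is not well measured. It read 350.1, 172 and 178 in young and 574, 660.2 and 509.5 in old epididymal cells, so its difference was 1.39 ± 0.28 there against -1.66 ± 0.47 in perirenal cells, and the interaction was -3.05 ± 0.59. The old arrays thus lay below all young arrays in perirenal cells and above all young arrays in epididymal cells. Il17re, an interleukin 17 receptor chain, read 21.6, 36.6 and 19.9 in young and 123, 74.6 and 196 in old perirenal cells, with an interaction of 2.82 ± 0.53. Its young perirenal level lies below the filter level, so the size of that value is not well measured, and its other probe set gave -0.09 ± 0.42. Igf2r, which clears IGF2, differed by -0.27 ± 0.12 in perirenal and 0.58 ± 0.15 in epididymal cells, with an interaction of -0.86 ± 0.19 and -0.73 ± 0.33 in its other probe set. None of these passed after adjustment.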

How the data were processed

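The deposited table holds linear intensity values, 1 for each probe set of an array, and the submitters' processing notes name MAS5. Its version, parameters and detection calls were not given in the sources used here. Scaling by the authors was kept. Intensities were log2 transformed with no offset, with 2 signals of 0 set to the lowest positive value of 0.1. The 57 control probe sets and the lowest 30% by mean log2 level on all 12 arrays were dropped from 15923, at a geometric mean signal of 56.3. Names came from the platform annotation: 12783 probe sets had 1 symbol, 312 several and 2771 none, and only those with 1 were named.

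Old and young perirenal arrays, 3 against 3, were compared with limma 3.58.1 in R 4.3.3 (intensity trend, Benjamini-Hochberg over 11106 probe sets, threshold 0.05), and the scripts were tested on simulated data. Gene lists used, per gene, the probe set of highest mean signal, and are described by counts and medians without a test. Named were the 4 smallest p in each direction, up to 2 genes of smallest p per list, a fixed panel of 12 genes, and the 2 smallest p in each direction of the interaction. The arrays, members and lists were chosen with earlier results of these data known. Alternatives were quantile normalisation, other filters, an offset of 16, no intensity trend, all 12 arrays in 1 fit, replicate blocks, the mean of a gene's probe sets and each array left out. Rat numbers link the depots of 1 animal, whose deviations from the group means correlated at 0.0393 to 0.201. The number of arrays limits the precision. Batches and dates were not given, and promoter sequences were not searched.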

Additional observations from a re-analysis of the deposited data

How the results depend on the processing

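The count of 1 probe set past the threshold in perirenal cells, higher in old cells, was also 1 after quantile normalisation and with the offset of 16. It was 0 without the filter, with the lowest 50% left out (which drops that probe set), without the intensity trend, in 1 fit of all 12 arrays and with the rat as a random replicate block over all 12 arrays, and 0 to 3 with an array left out. The Stmn2 difference was 2.76 in each of these fits that kept it and all arrays (2.77 after quantile normalisation, 2.59 with the offset), and 2.50 to 3.00 with an array left out. Old and young rats of 1 number are different animals, and their deviations correlated at 0.303, 0.162 and 0.0508, with 5 of 6 arrays matching their own number best. With that number as a replicate block, 3 probe sets passed, all higher: both of Stmn2 and that of Lyz2.

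Without the first young epididymal array, 8 probe sets passed for age in epididymal cells (2 higher, 6 lower) and 1 for the interaction (higher), against 0 without each of the others; the rat as a fixed replicate block gave 0 for the interaction. Of 1079 values of 79 named probe sets under the alternatives, 14 in 7 genes changed sign, all with an array left out: Cdkn2a (-0.041 to 0.62), Pparg (-0.017 to 0.72), Cebpd (-0.12 to 0.56), Celf1 (-0.031 to 0.20), Pnpla2 (-0.066 to 0.43), Ddit3 (-0.28 to 0.097) and Fabp4 (-0.84 to 1.45). The cause was not tested. Over all alternatives, the count at an unadjusted p under 0.05 was 2 to 8 for macrophage and leukocyte markers, 2 to 10 for secreted inflammatory genes, 0 to 9 for proliferation genes and 5 to 14 for collagens and structural matrix. With 3 rats per age, a difference had to be 3.33-fold at the median error to pass.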

Other observations

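Some genes passed the adjusted limma threshold only with 1 array left out, and were picked out after their values were seen. Nrxn2, a synaptic adhesion protein, read 194.5, 54.6 and 52.5 in young and 246, 237 and 287 in old perirenal cells, and passed without the first young array. Cxcl14, a chemokine, read 609, 1304 and 546 in young and 1550.2, 1505 and 1594 in old perirenal cells, and passed without the second young array. In both genes 1 young array lay above the other two, and all old arrays lay above all young arrays. In epididymal cells Nrxn2 differed by 1.35 ± 0.66 and Cxcl14 by 0.13 ± 0.18.

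The second young and the third old perirenal culture were the highest of their age for Lcn2, as for Slpi. Lcn2, the iron-chelator carrier lipocalin 2, read 1017, 5719 and 1311 in young and 1942, 1346 and 10733 in old cells, a difference of 0.63 that did not pass. Epas1, the hypoxia factor HIF-2α, read 522, 535 and 774 in young and 941, 728 and 2334 in old cells, highest in the third old culture, with 0.33 ± 0.33 in its other probe set.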
